A study of Oncorhynchus mykiss with 6 samples.

Results

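The rows of the microRNA families miR-7, miR-375 and miR-202 were followed in the head kidney of rainbow trout (Oncorhynchus mykiss) at a control and a raised water temperature. They were taken by the family number in the row name, with every letter, copy and arm, which gave 12 of the 1381 rows of the table: 6 of miR-7, 4 of miR-375 and 2 of miR-202. MicroRNAs (miRNAs) are short RNAs that guide the repression of target mRNAs. Small RNA was sequenced from 6 female fish aged 1 year, 3 controls at 18 °C and 3 heat-treated fish at 24 °C, with 1 library per fish and no genetic change named in the labels. All 12 rows carry Atlantic salmon (ssa) names, no sequences were used here, and no source used here says how long the heat lasted. The most abundant rows of the families were ssa-miR-7a-5p, ssa-miR-375-3p and ssa-miR-202-3p, written below without the prefix.

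The head kidney of teleost fish is a blood-forming and immune organ that also holds the interrenal cells, which make cortisol, and the chromaffin cells, which release catecholamines. miR-7 is an ancient miRNA known from neurosecretory and hormone-producing cells, including the pancreatic islet and the pituitary in vertebrates. miR-375 is best known from the pancreatic islet, where it restrains insulin secretion in mouse beta cells. miR-202 is a miRNA of the vertebrate gonad, and its loss in medaka lowers the number of eggs a female lays. A miRNA hairpin can give a product from each of its arms, named 5p and 3p, and several hairpin copies can give the same mature product.

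Library totals ran from 3753036 to 5156793 counts, and 537 rows had enough counts to be tested. Levels are given as CPM, counts set to a library total of 1000000 after TMM scaling. The limit of 3 counts that a count of 0 allows equalled 0.579 to 0.807 CPM. CPM holds no length term; mature miRNAs have nearly the same length. The leukocyte list (miR-142, miR-150, miR-155 and miR-223) had rows for 3 of its 4 families, with summed levels of 9590 to 17031 CPM at 18 °C and 13832 to 17472 CPM at 24 °C. The striated muscle list (families miR-499, miR-208, miR-206, miR-133 and miR-1), with rows for 4 of 5 families and counts in all libraries for 6 of its 11 rows, summed to 411 to 725 CPM at 18 °C and 1137 to 2326 CPM at 24 °C.

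The 3 families stood at very different levels, and 3 rows took 99.9% of their counts. miR-7a-5p ranked 10th of the 1381 rows by mean level, miR-375-3p ranked 68th and miR-202-3p ranked 236th. miR-7a-5p lay above miR-375-3p in all 6 libraries, by at least 18.35-fold, and miR-375-3p lay above miR-202-3p in all 6, by at least 16.3-fold. The next row, miR-7a-3-3p, could not be set apart from miR-202-3p, which was the higher of the pair in 3 of 6 libraries. miR-7a-5-3p followed below miR-7a-3-3p in all 6 libraries. Below these came 7 rows that did not reach the count filter of the test. These were miR-375-5p, miR-375-3-5p, miR-202-5p, miR-7a-4-3p, miR-7a-2-3p, miR-375-2-5p and miR-7a-1-3p. They held 73 counts in all, none more than 11 in a library. Totals ran from 23 for miR-375-5p to 1 for miR-375-2-5p and miR-7a-1-3p.

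No row of the 3 families passed the test between the temperatures. Of the 5 tested rows, 0 had an adjusted p under 0.05 in edgeR's quasi-likelihood test, where 0.186% of the 537 tested rows passed (1 higher and 0 lower at 24 °C). DESeq2 and limma-voom also called 0 of the 5, where DESeq2 called 0.931% of the 537 tested rows. The share that limma-voom called over all rows was not taken. At an unadjusted p under 0.05 edgeR gave 0 of the 5, and DESeq2 and limma-voom gave 1 each, miR-202-3p on the lower side. Over all tested rows, 6.52% had an unadjusted edgeR p under 0.05. That share was not taken for DESeq2 or limma-voom, so their 1 row has no background here. In bulk tissue, fewer cells of a type and less RNA per cell cannot be told apart, which holds for every level given here.

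**Figure D1:**
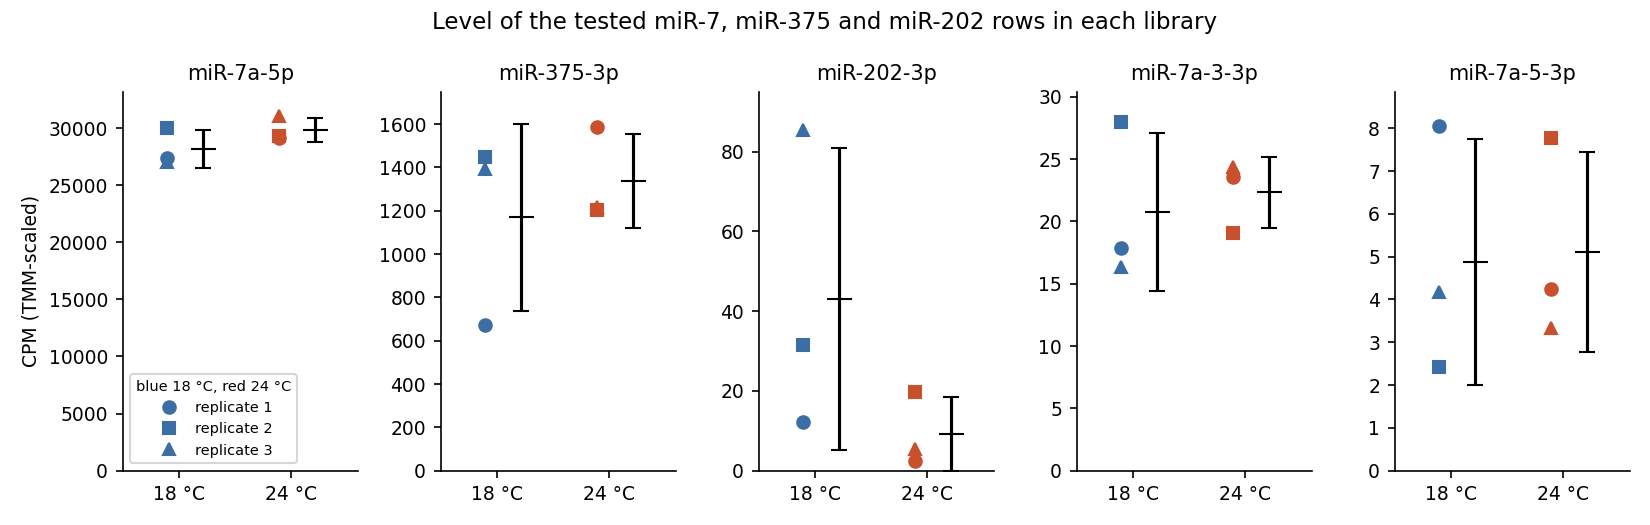
TMM-scaled CPM of the 5 tested rows in each of the 6 libraries (symbols, by replicate number; blue 18 °C, red 24 °C), with the mean and SD of each group (black, n = 3). miR-7a-5p varied by 1.15-fold over all libraries, while miR-202-3p varied by 34.02-fold; replicate numbers only name the fish.

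miR-7a-5p, the main product of the miR-7 family, was abundant and close to constant from fish to fish. It stood at 27351, 30033 and 26983 CPM in the control libraries and at 29127, 29303 and 31048 CPM in the heat libraries. The groups overlapped, with control replicate 2 above heat replicates 1 and 2. The mean was 28122 ± 1665 CPM for the controls and 29826 ± 1062 CPM for the heat fish (SD, n = 3 each). The log2 fold change of 24 °C over 18 °C was 0.08 ± 0.12 (SE), and its 95% interval of 0.877-fold to 1.28-fold left out any change past those bounds (edgeR quasi-likelihood adjusted p = 0.90). An interval inside 2-fold either way was found for 31.5% of the tested rows. All miR-7 rows together took 2.82% ± 0.139 of all counts in the controls and 2.99% ± 0.257 in the heat fish (SD, n = 3 each). The difference of 0.169 percentage points was within the spread between fish (two-sided exact permutation p = 0.5). It was 0.0288 percentage points without heat replicate 3 and 0.281 without heat replicate 2.

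miR-7a-5p ranked among the least variable of the tested rows. The SD of its log2 CPM within groups was 0.07, the fourth lowest of 537 rows, where the median was 0.43. Among the 74 rows with a mean of at least 1000 CPM it was the third lowest. Among the 32 rows within 4-fold of its own level, whose median SD was 0.20, it was the second lowest. With library totals in place of TMM scaling the SD was 0.10. Counting error adds little at a depth of 111622 to 150969 counts per library. The rank is given as a description, with no test.

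**Figure D2:**
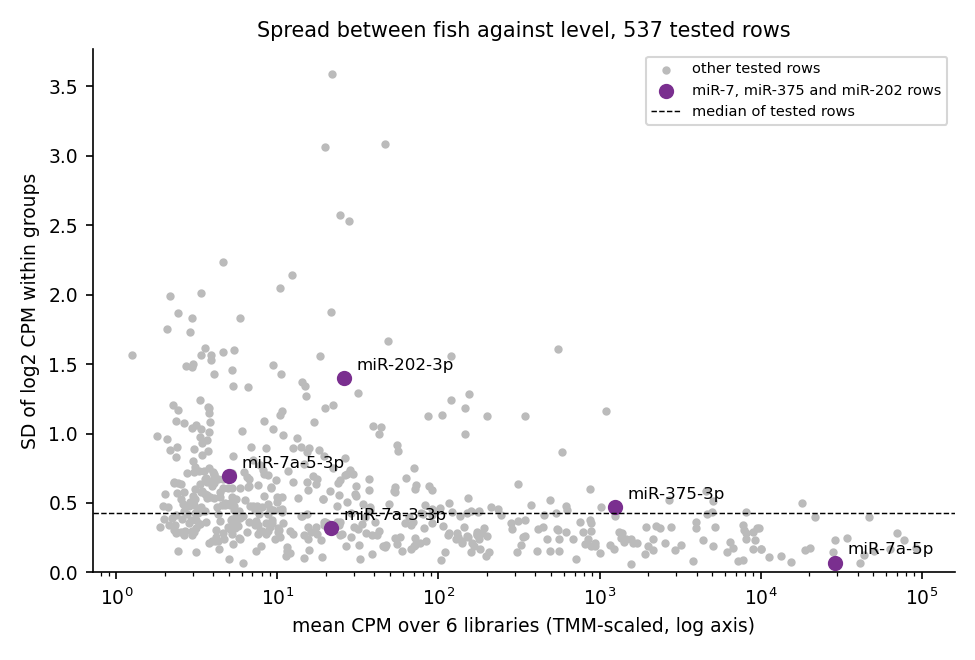
SD of log2 CPM within groups (vertical axis, pooled over both temperatures) against mean CPM over 6 libraries (horizontal log axis) for the 537 tested rows (grey), with the miR-7, miR-375 and miR-202 rows in purple and the median of 0.43 dashed. miR-7a-5p lies at 0.07 near the lower edge, miR-375-3p at 0.47 lies above most rows of its level, and miR-202-3p lies at 1.40.

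The 3p arm of miR-7a was rare and came from few of the named copies. Over all libraries it held 740 counts against 795639 on the 5p arm, or 0.0929% of the hairpin's counts (exact binomial 95% interval 0.0863% to 0.0999%, counting error only). The log2 of 5p over 3p counts, with all copies summed and 0.5 added to each count, was 10.1 ± 0.226 in the controls and 10.04 ± 0.0447 in the heat fish (SD, n = 3 each). Its size was the 7th largest of the 91 hairpins compared, whose median absolute log2 ratio was 5.23. Only hairpins with a mean of at least 10 counts on each arm were compared. This leaves out hairpins with a rarer minor arm, miR-375 among them, so the rank holds only within this set. The difference of -0.07 ± 0.23 (SE) did not pass (limma adjusted p = 0.96), where 3.3% of the 91 hairpins passed.

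Copies of miR-7a share 1 row for the 5p product, miR-7a-5p, but have 3p rows of their own. miR-7a-3-3p took 79.2% of the 740 counts on the 3p arm and miR-7a-5-3p took 18.9%. The other 3 copies held 14 counts together, 8 of miR-7a-4-3p, 5 of miR-7a-2-3p and 1 of miR-7a-1-3p. A 3p row counts the product of that arm; which copies supply the 5p row cannot be read from these counts. Of 327 annotated rows with at least 10 counts, 2 had the same 6 counts as another row, and 0 of these were of the 3 families.

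Neither tested 3p row of miR-7a passed the test between the temperatures. miR-7a-3-3p had 91, 104 and 78 counts in the control libraries and 122, 81 and 110 in the heat libraries, or 20.7 ± 6.34 CPM and 22.3 ± 2.86 CPM (SD, n = 3 each). Its log2 fold change was 0.11 ± 0.34 (SE; edgeR adjusted p = 0.95), and the groups overlapped. miR-7a-5-3p had 41, 9 and 20 counts in the control and 22, 33 and 15 in the heat libraries. Its levels were 4.88 ± 2.88 CPM and 5.11 ± 2.34 CPM (SD, n = 3 each), with a log2 fold change of 0.05 ± 0.54 (SE; edgeR adjusted p = 0.996).

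The balance of these copies was also compared between single fish. This comparison was chosen after the values were seen. miR-7a-5-3p made up 31.1% of the miR-7a 3p counts in control replicate 1 (exact binomial 95% interval 23.3% to 39.7%). In control replicate 2 it made up 7.83% (3.64% to 14.3%), an interval that does not reach that of control replicate 1. Control replicate 3 lay between them at 20.4%. The heat libraries held 14.9%, 27.97% and 11.6%, and the intervals of heat replicates 2 (20.1% to 37.0%) and 3 (6.66% to 18.5%) did not touch either. The group means were 19.8% ± 11.6 and 18.2% ± 8.65 (SD, n = 3 each; two-sided exact permutation p = 0.9). The difference of -1.61 percentage points became 4.04 without control replicate 1 and -7.58 without control replicate 2. The intervals cover counting error only and were compared for pairs chosen after their values were seen.

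**Figure D3:**
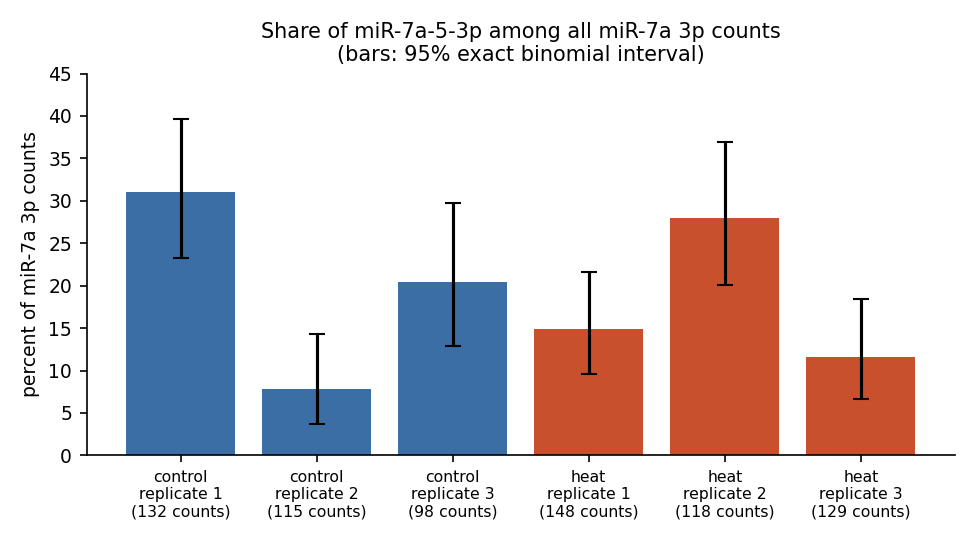
Percent of the miR-7a 3p counts that fell on miR-7a-5-3p in each library (bars; blue 18 °C, red 24 °C), with exact binomial 95% intervals and the number of 3p counts under each bar. The shares run from 7.83% to 31.1%, both in control libraries.

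miR-375-3p stood at a moderate level, and 1 control fish set most of its spread. Its level was 672 CPM in control replicate 1, against 1448 and 1391 CPM in control replicates 2 and 3. The heat libraries held 1587, 1204 and 1219 CPM. Control replicate 1 was therefore the lowest of all 6 libraries, while the other controls lay inside the range of the heat fish. The mean was 1171 ± 432 CPM for the controls and 1337 ± 217.2 CPM for the heat fish (SD, n = 3 each). The log2 fold change of 0.19 ± 0.31 (SE) had a 95% interval of -0.53 to 0.91 (edgeR adjusted p = 0.92). Without control replicate 1 it was -0.09 ± 0.20, so the sign of the estimate rests on that fish.

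The SD of miR-375-3p between fish also rested largely on control replicate 1. The SD of its log2 CPM within groups was 0.47, the 11th highest of the 71 rows within 4-fold of its level, where the median was 0.29. Without control replicate 1 the SD was 0.16, and the rank was not taken again. The miR-375 family took 0.0678% of the counts in control replicate 1 (exact binomial 95% interval 0.0655% to 0.0701%) and 0.114% to 0.160% in the other 5 libraries. The group means were 0.117% ± 0.0428 and 0.134% ± 0.0235 (SD, n = 3 each; exact permutation p = 0.7). Their difference of 0.0167 percentage points became -0.0081 without control replicate 1.

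The 5p arm of miR-375 was close to the counting floor in every library. Its 3 rows held 23 counts for miR-375-5p, 20 for miR-375-3-5p and 1 for miR-375-2-5p. Summed, the 5p arm had 5, 6 and 8 counts in the control and 7, 10 and 8 in the heat libraries. This was 0.128% of the hairpin's counts (exact binomial 95% interval 0.0931% to 0.172%), and its mean of 7.33 counts was under the 10 that the test of arm ratios required. The dominant arm of miR-375 was thus 3p, while that of miR-7a was 5p.

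The rows whose level followed miR-375-3p most closely over the 6 libraries were low in control replicate 1 too. This follows largely from how they were chosen, since that library set most of the spread of miR-375-3p. Among 224 annotated rows with a mean of at least 10 CPM, the highest Pearson correlations of log2 CPM were with miR-130a-5p (r = 0.98), miR-122-5p (r = 0.96) and miR-22a-5p (r = 0.92). In the same order, the rank (Spearman) correlations were 0.94, 0.71 and 0.71. These are descriptions over 6 libraries that share their depth and scaling, chosen as the highest of many, and carry no test. miR-122-5p, the dominant miRNA of the vertebrate liver, stood at 5.30 CPM in control replicate 1, against 78.03 and 81.6 CPM in the other controls and 74.1, 29.6 and 24.2 CPM in the heat libraries. It was the only member of the liver list, and its part in the level of miR-375-3p was not tested. miR-216a-5p, known from the exocrine pancreas, did not share this pattern. It stood at 10.4 CPM in control replicate 1, above control replicate 2 (4.30 CPM) and heat replicate 1 (3.86 CPM). This scarce row held 16 to 142 counts per library, and its part in the level of miR-375-3p was not tested either.

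**Figure D4:**
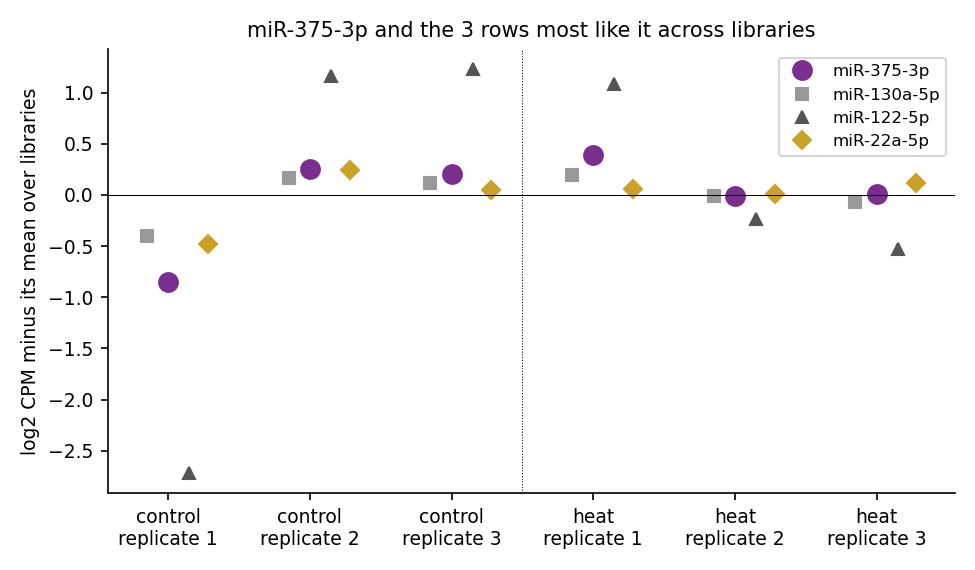
Log2 CPM of miR-375-3p (purple circles) and of the 3 annotated rows most like it, each minus its own mean over the 6 libraries (vertical axis), by library (horizontal axis). All 4 rows are lowest in control replicate 1, where miR-375-3p stood at 672 CPM and miR-122-5p at 5.30 CPM.

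miR-202-3p was scarce and varied more between fish than any other tested row of the 3 families. It had 62, 117 and 408 counts in the control libraries and 13, 84 and 24 in the heat libraries. These were 12.2, 31.5 and 85.3 CPM at 18 °C and 2.51, 19.8 and 5.32 CPM at 24 °C. Control replicate 3 was the highest and heat replicate 1 the lowest, and the groups overlapped because heat replicate 2 lay above control replicate 1. Between the highest and the lowest fish the level differed by 34.02-fold, with Poisson 95% intervals of 77.2 to 94.02 CPM and 1.34 to 4.29 CPM that cover counting error only. The mean was 42.99 ± 37.9 CPM for the controls and 9.20 ± 9.26 CPM for the heat fish (SD, n = 3 each).

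The difference of miR-202-3p between the temperatures did not pass the test. Its log2 fold change was -2.23 ± 0.95 (SE; 95% interval -4.48 to 0.03), with an unadjusted edgeR p of 0.052 and an adjusted p of 0.63. DESeq2 gave an unadjusted p of 0.00999 and an adjusted p of 0.25, and limma-voom gave 0.039 and 0.70. The estimate was -1.26 without control replicate 3 and -3.44 without heat replicate 2, and it was negative without any 1 of the 6 libraries. The interval holds both no change and a fall by more than 4 on the log2 scale, so this depth and number of fish do not fix its size.

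The spread of miR-202-3p was high for its level within each group. The SD of its log2 CPM was 1.38 among the controls and 1.41 among the heat fish. Pooled, at 1.40, it was the 35th highest of the 537 tested rows, and the 13th highest among the tested rows within 4-fold of its level, whose median was 0.47. The 5p arm, miR-202-5p, was seen in 4 of 6 libraries and had most of its 15 counts in the fish with the most 3p. Control replicate 3 held 11 of them, control replicate 2 held 2, and heat replicates 2 and 3 held 1 each. The 5p arm made up 2.07% of the hairpin's counts (exact binomial 95% interval 1.17% to 3.40%), and its mean of 2.5 counts was too low for the test of arm ratios.

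Set against miR-375-3p of the same library, miR-202-3p was lower in every heat fish than in every control fish. The log2 ratio of miR-202-3p over miR-375-3p was -5.78, -5.52 and -4.03 in the control libraries and -9.25, -5.92 and -7.81 in the heat libraries. The groups did not overlap, although heat replicate 2 lay close to control replicate 1. The means were -5.11 ± 0.945 and -7.66 ± 1.67 (SD, n = 3 each), a difference of -2.55 (two-sided exact permutation p = 0.1, which 3 fish against 3 cannot go below). The difference was -1.76 without heat replicate 1 and -3.42 without heat replicate 2. Among single rows, 12.8% of the 537 tested had groups that did not overlap, and miR-202-3p itself was not one of them. That share is for CPM of single rows. None was taken over ratios of 2 rows, so the separation of the ratio has no background here. In control replicate 1 both miRNAs were the lowest of their group, at 12.2 and 672 CPM. Heat replicate 2 held more of both, at 19.8 CPM of miR-202-3p and 1204 CPM of miR-375-3p. The order of these libraries in the ratio thus rests on the low miR-375-3p of control replicate 1. Their miR-202-3p counts were 62 in control replicate 1 and 84 in heat replicate 2. Their miR-7a-5p counts were 139423 and 124549, so over miR-7a-5p heat replicate 2 lay above control replicate 1 and the groups overlapped. The ratio of miR-375-3p over miR-7a-5p did not separate the groups (log2 means of -4.67 ± 0.591 and -4.49 ± 0.256, SD, n = 3 each; exact permutation p = 0.8), and the sign of its difference turned without control replicate 1 (0.17 with all libraries, -0.17 without).

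The summed muscle list also separated the groups, as given above, in the other direction. Its most abundant rows were miR-499a-5p (mean 549 CPM, log2 fold change 2.53) and miR-1-3p (343 CPM, 1.85). Not every row of the list rose: miR-499b-5p (147 CPM) had an estimate of -0.66. The part of the muscle list in the ratio of miR-202-3p over miR-375-3p was not tested. The epithelial list (miR-141, miR-200, miR-203, miR-205 and miR-429) had rows for 4 of 5 families and counts in all libraries for 7 of its 14 rows. It summed to 435 to 838 CPM at 18 °C and 405 to 435 CPM at 24 °C, and control replicate 2 lay within the range of the heat fish. Of the embryo and gonad list (miR-427, miR-430, miR-509 and miR-514), 1 of 4 families had a row. This was miR-430c-5p, with 1 count each in control replicate 1 and heat replicate 2 and 0 in the other libraries. With 1 row at so few counts, this list gives no measure of gonad tissue in any library. The part of these lists in the level of miR-202-3p was not tested.

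The annotated rows most like miR-202-3p over the 6 libraries were let-7g-3p (r = 0.90), miR-181c-3p (r = 0.89) and miR-222b-5p (r = 0.81), the highest of 224, all below 16 CPM on average. Their own range was far narrower. let-7g-3p ran from 9.53 to 13.8 CPM and miR-181c-3p from 9.26 to 20.2 CPM, while miR-202-3p ran from 2.51 to 85.3 CPM. Of 224 rows, 1 exceeded r = 0.9. For miR-7a-5p the rows most like it were miR-92a-3p, a member of the miR-17/92 clusters, miR-93a-5p and miR-210-5p, the last induced by low oxygen in mammals (r = 0.97 for each of the 3). miR-92a-3p was again among the rows most like miR-7a-3-3p (r = 0.92), with miR-15c-5p (r = 0.94) and miR-25-3p (r = 0.93). For miR-7a-5-3p they were let-7a-4-3p (r = 0.95), miR-19c-3p (r = 0.88) and miR-19a-3p (r = 0.82). The level of miR-92a-3p varied from 14662 to 30689 CPM, much more than the 1.15-fold of miR-7a-5p. The likeness is thus in the pattern of TMM-scaled CPM over libraries and not in the size of the differences. For miR-7a-5p this pattern depends in part on the scaling, whose factors ran from 0.942 to 1.05. In TMM-scaled CPM heat replicate 1 lay below heat replicate 2, at 29127 against 29303. As a share of all counts it lay above, at 2.93% against 2.76%. The correlations were not taken with library totals. For miR-7a-5p, 6 rows exceeded r = 0.9.

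Other miRNAs known from nervous and neuroendocrine tissue were compared with these families. A list of 12 such families (miR-9, miR-124, miR-128, miR-129, miR-132, miR-137, miR-138, miR-153, miR-212, miR-216, miR-217 and miR-218; miR-216 and miR-217 are better known from the exocrine pancreas) had 36 rows from 10 families. miR-124, a major miRNA of the vertebrate brain, and miR-217 had no annotated row. Of the 18 rows tested, 0 passed in edgeR (0.186% of all rows), DESeq2 (0.931% of all rows) or limma-voom (share not taken). Each tool gave 1 with an unadjusted p under 0.05 (6.52% of all rows in edgeR, not taken for the other tools). The row in edgeR, miR-153a-3p, was on the lower side. Those in DESeq2 and limma-voom were on the higher side. Estimates were positive for 13 and negative for 5, with a median log2 fold change of 0.23 against 0.002 over all 537 tested rows, of which 50.3% were positive. The 18 rows are not independent of each other. They include both arms of miR-129, miR-132 and miR-138 and several miR-9 rows, and the set was not tested.

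The list was dominated by miR-128-3p, a miRNA enriched in neurons and also expressed in blood-forming cells. It stood at 9395 ± 729 CPM in the controls and 10827 ± 1604 CPM in the heat fish (SD, n = 3 each), with a log2 fold change of 0.20 ± 0.15 (SE; edgeR adjusted p = 0.77). The next rows were miR-9a-5p, a regulator of neural progenitors, at 311 ± 43.1 and 315 ± 112 CPM, and miR-218-5p, known from motor neurons, at 328 ± 172 and 293 ± 110.4 CPM. miR-132-5p, of an activity-induced neuronal hairpin, stood at 137.5 ± 83.8 and 172 ± 115 CPM. The mean level of miR-7a-5p was thus above that of every row of the list.

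**Figure D5:**
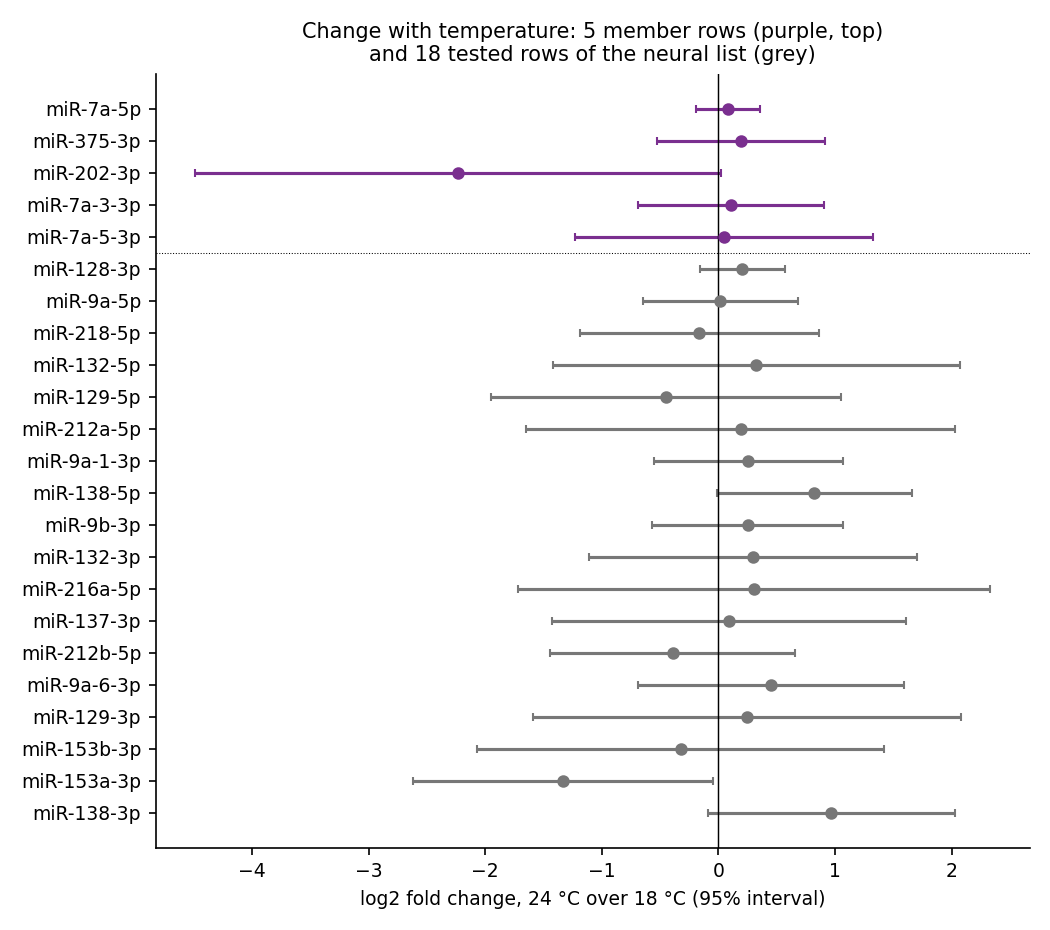
Log2 fold change of 24 °C over 18 °C with its 95% interval (edgeR, n = 3 per group) for the 5 tested rows of miR-7, miR-375 and miR-202 (purple) and the 18 tested rows of the neural list in order of level (grey). All 5 purple intervals span 0; that of miR-7a-5p is the narrowest (-0.19 to 0.36) and that of miR-202-3p the widest (-4.48 to 0.03).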

How the data were processed

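Total RNA was extracted with TRIzol and small RNA libraries were made with a NEBNext Illumina kit (both per the labels' protocols). The submitters' processing notes name Bowtie. No source used here states its version, the genome build or how reads matching several rows were counted. The authors deposited whole-number read counts and TPM values; the TPM values equal count over library total times 1000000 (largest difference 2.33e-10), have no length term and were used no further. Libraries were grouped by title, and p-values measure the spread between 3 fish per group.

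The count test was edgeR 4.0.16 under R 4.3.3 (filterByExpr with minimum count 10 and total 15, TMM, robust quasi-likelihood, Benjamini-Hochberg over 537 rows, threshold 0.05). Arm ratios used limma 3.58.1 for 91 hairpins whose arms each averaged 10 counts or more, copies summed. Spreads used log2 CPM with a prior count of 2. Shares and ratios used exact permutation tests. The tests were checked on simulated data. Alternatives were other scalings, DESeq2 1.42.0, limma-voom, other filters, annotated rows only, summed copies, a fit that is not robust, a replicate block and each library left out. All rows of the 3 families are named, with the 4 most abundant rows of the neural list and the 3 annotated rows most correlated with each tested member. The members and lists were chosen with earlier results of these data known. Every pair of libraries differed beyond sampling noise (chi-square over its degrees of freedom, 117 to 344). Figures were drawn with matplotlib 3.10.9.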

Additional observations from a re-analysis of the deposited data

How the results depend on the processing

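No row of the 3 families and no row of the neural list was called in either direction under any of the 17 alternatives to the test. Few rows of any kind were called: 0.186% of the 537 tested rows in the main edgeR test and 0.931% in DESeq2. That share was not taken for the other alternatives, so their counts of 0 have no background here. At shares so low, 0 calls among so few rows say little about these families. The log2 fold change of miR-7a-5p stayed positive (0.011 to 0.091) and that of miR-202-3p negative (-3.44 to -1.26). Signs of small estimates turned for miR-375-3p without control replicate 1 (-0.087), for miR-7a-3-3p without control replicate 3 (-0.041), and for miR-7a-5-3p with annotated rows only (-0.014) and without control replicate 2 (-0.34), control replicate 3 (-0.11) or heat replicate 2 (-0.41). Without a library these 3 ran from -0.087 to 0.33, -0.041 to 0.31 and -0.41 to 0.61. The difference of the miR-7a arm ratio was 0.057 without control replicate 3 and ran from -0.16 to 0.057 without a library. Signs also turned without control replicate 1 for the miR-375 share (-0.0081 percentage points) and the log2 ratio of miR-375-3p over miR-7a-5p (-0.17). The share of miR-7a-5-3p among 3p counts moved from -7.58 to 4.04 percentage points without a library, positive without control replicate 1, heat replicate 1 or heat replicate 3. The SD between fish without a library ran from 0.16 to 0.58 for miR-375-3p, 0.15 to 0.40 for miR-7a-3-3p and 0.037 to 0.085 for miR-7a-5p. The difference in the share of miR-202 was -0.0081 percentage points without the 10 most abundant rows, by the smaller total alone, and -0.0035 with them. That share could not be run for miR-7, since miR-7a-5p is among the 10. With a mean of at least 50 counts required, miR-7a-5-3p was not tested. Same-numbered fish did not deviate together (correlations of -0.06, -0.18 and -0.15), so the numbers were not taken to pair fish. With a replicate block the log2 fold change was 0.09 for miR-7a-5p, 0.25 for miR-375-3p and -2.29 for miR-202-3p, and no call changed. Depth limits the rare arms: 7 of 12 rows had at most 11 counts in a library.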

Other observations

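Within the neural list, 3 of the 18 tested rows had groups that did not overlap, and these rows were named after their values were seen (12.8% of all 537 tested rows had such groups). Both arms of miR-138, a neuronal miRNA, were higher in every heat fish in TMM-scaled CPM. For miR-138-3p this rests on few counts and on the scaling. Control replicate 3 held 14 counts of it and heat replicate 2 held 13. By library totals alone, that control lay above that heat fish. miR-138-5p stood at 12.8, 18.6 and 19.9 CPM in the control libraries and at 25.9, 24.2 and 40.3 CPM in the heat libraries, with a log2 fold change of 0.82 ± 0.36 (SE; edgeR adjusted p = 0.63). miR-138-3p stood at 1.77, 1.61 and 2.93 CPM and at 5.40, 3.06 and 3.99 CPM, with 0.97 ± 0.45 (SE; edgeR adjusted p = 0.63). miR-153a-3p, another neuronal miRNA, was lower in every heat fish, at 3.33, 2.69 and 8.57 CPM in the control and 2.12, 1.65 and 1.995 CPM in the heat libraries (log2 fold change -1.33 ± 0.55, SE; edgeR adjusted p = 0.63). This separation also rests on few counts. Control replicate 2 held 10 counts of miR-153a-3p and heat replicate 1 held 11, from a larger library total. The highest level of miR-153a-3p was in control replicate 3, the fish with the most miR-202-3p. None of the 3 rows passed the test.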
